A study of Rattus norvegicus with 12 samples.

Results

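The genes described here encode the signalling chains of the T cell receptor, its coreceptors and the kinases that act first downstream of it. The 10 members were named by symbol, namely Cd3d, Cd3e, Cd3g, Cd2, Cd5, Cd4, Cd8a, Cd8b, Lck and Zap70, and were found through their Entrez identifiers (25710, 315609, 300678, 497761, 54236, 24932, 24930, 24931, 313050 and 301348) among the 16511 genes of a table of read counts. All 10 had a row and at least 1 count. RNA was sequenced from 12 snap-frozen rat mammary glands taken on postnatal day (PND) 21, each from a different litter. Glands came from offspring of 6 dams given a high fat butter diet (HFB) and of 6 dams given the control diet AIN (CTL), and the comparison asks whether the maternal diet altered expression in the gland before puberty. The labels give more than a single end for the exposure, so its window was not settled, and strain and sex are not given in the sources used here. Libraries are named by diet and library number, HFB 1 to HFB 6, CTL 7 to CTL 11 and CTL 14.

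Total counts per library ran from 2320267 to 2944680 and were alike with HFB and CTL (exact permutation test, two-sided, p = 0.561). Levels are given as CPM, the count of a gene scaled to a common library total after TMM correction of that total. A count of 3, taken as the lowest that can be told from 0, was worth 0.945 to 1.30 CPM depending on the library, and this limit covers counting error only. HFB 6 and CTL 14 stood apart from the other 10 libraries in 9 of the 10 genes. The members' fold changes and the correlations of Cd3e are therefore given with and without them. Fold changes of the other gene lists are given with all libraries only and may rest on these libraries.

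T cells recognise peptides bound to MHC molecules through a receptor whose variable chains have almost no signalling tail of their own. Signal is passed on by the CD3 chains, which are phosphorylated by Lck, a kinase held by the tails of the coreceptors CD4 and CD8, and which then recruit the kinase ZAP-70. In the mammary gland T cells lie in the stroma, within ducts and in the lymph nodes embedded in the fat pad, and in rats CD4 is also carried by macrophages.

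Cd3d, Cd3e and Cd3g encode the CD3 delta, epsilon and gamma chains, which pair with each other and carry the phosphorylated motifs of the receptor complex. In the HFB glands Cd3e had 0 CPM at the lowest, 9.30 at the median and 98.8 at the highest, and in the CTL glands 0.394, 1.50 and 116. For Cd3g the lowest, median and highest values were 0.357, 11.7 and 152 CPM with HFB and 0, 3.58 and 170 CPM with CTL. The same values of Cd3d were 0, 5.24 and 217 CPM with HFB and 0, 2.08 and 148 CPM with CTL. The highest library of each diet was HFB 6 or CTL 14 for all 3 genes, HFB 1 and HFB 2 came next, and the remaining 8 libraries had at most 3.03 CPM of Cd3d and 8.23 of Cd3g, so that the ranges of the diets overlapped almost completely. Cd3e had 37.2 CPM in HFB 1 and 16.7 in HFB 2, against at most 3.90 (CTL 9) in those 8 libraries, and 4 libraries had fewer than 3 Cd3e counts. In bulk tissue, fewer cells of a type and less RNA of a gene per cell cannot be told apart.

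**Figure D1:**
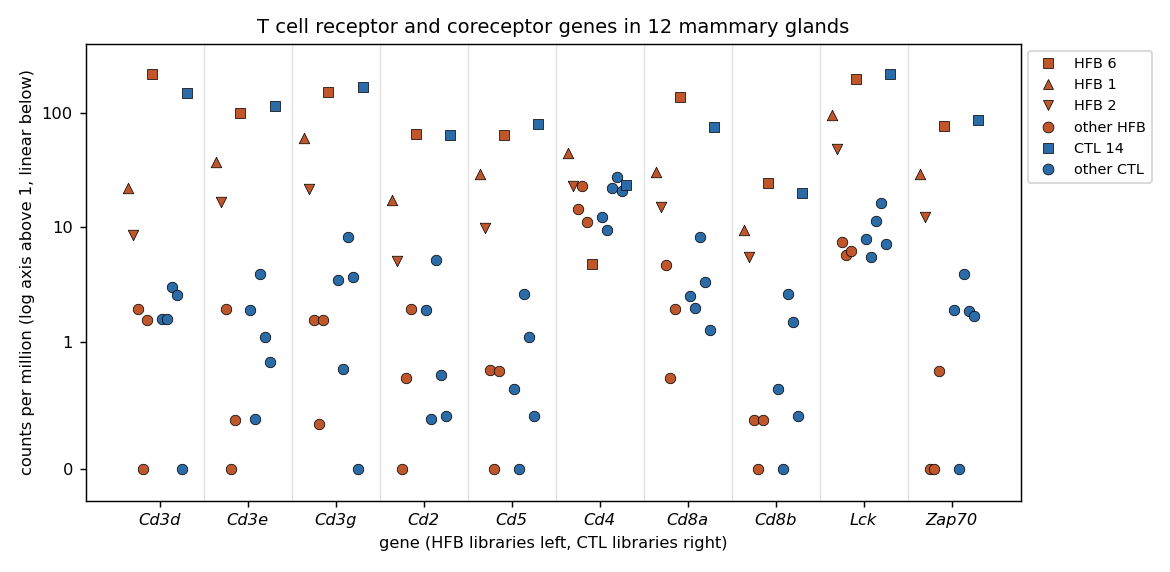
CPM of the 10 genes in each of the 12 glands, 1 point per library, on an axis that is logarithmic above 1 CPM and linear below it, with HFB libraries left and CTL libraries right within each gene. Squares (HFB 6 and CTL 14) stand highest and triangles (HFB 1 and HFB 2) next for all genes except Cd4, whose lowest point is HFB 6 at 4.76 CPM, and Cd2, where CTL 9 (5.20 CPM) lies just above HFB 2 (5.12 CPM).

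The plot of CPM by gene and library shows much the same order of libraries across 9 of the genes. HFB 6 and CTL 14 together held between 68.0% (Lck) and 90.2% (Cd3d) of all counts of those 9 genes, and 13.1% of the counts of Cd4. Cd3g, Cd3d and Cd3e ranked 5, 6 and 8 from the most variable among 10374 genes with a mean of at least 5 counts, by the standard deviation (SD) of log2 CPM within diets. Their SDs were 2.81, 2.76 and 2.67 on the log2 scale, against a median of 0.43 over all those genes.

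The CD3 genes are neighbours in the rat genome, in the order Cd3g, Cd3d, Cd3e between Ube4a and Mpzl2 in the RefSeq annotation of the GRCr8 assembly. Their promoters are shown because these genes varied together. RefSeq promoter windows of GRCr8, from 250 bases before to 50 bases after an annotated start, were found for 8 of the 10 members, Lck with 2 starts, and not for Cd4 or Cd8b. Each sequence is printed 5′ to 3′ along its gene, with capitals for matches on either strand to AGGAAG, a core bound by ETS factors, or TGTGGT, a core bound by RUNX factors. The Cd3g window lies at chr8:54183869-54184168 (minus strand), Cd3d at chr8:54185269-54185568 (plus strand) and Cd3e at chr8:54211721-54212020 (minus strand). The starts of Lck lie at chr5:147201218-147201517 and chr5:147183601-147183900, both on the minus strand.
Cd3g: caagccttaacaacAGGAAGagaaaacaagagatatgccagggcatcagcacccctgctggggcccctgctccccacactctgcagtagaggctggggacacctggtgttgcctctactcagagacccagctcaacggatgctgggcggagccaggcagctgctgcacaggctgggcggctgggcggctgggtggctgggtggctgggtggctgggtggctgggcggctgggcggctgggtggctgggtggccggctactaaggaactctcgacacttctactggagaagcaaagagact
Cd3d: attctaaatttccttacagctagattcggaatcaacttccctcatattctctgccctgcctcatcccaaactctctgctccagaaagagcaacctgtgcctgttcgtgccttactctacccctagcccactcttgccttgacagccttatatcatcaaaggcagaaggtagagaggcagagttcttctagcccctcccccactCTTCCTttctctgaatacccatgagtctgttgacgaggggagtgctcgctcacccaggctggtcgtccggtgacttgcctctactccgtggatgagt
Cd3e: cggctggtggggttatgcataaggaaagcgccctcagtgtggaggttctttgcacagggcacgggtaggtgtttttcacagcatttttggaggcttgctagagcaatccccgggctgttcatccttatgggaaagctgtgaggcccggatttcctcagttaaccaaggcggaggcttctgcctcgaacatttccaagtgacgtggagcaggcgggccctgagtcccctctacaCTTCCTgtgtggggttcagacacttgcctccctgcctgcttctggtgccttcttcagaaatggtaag
Lck, upstream start: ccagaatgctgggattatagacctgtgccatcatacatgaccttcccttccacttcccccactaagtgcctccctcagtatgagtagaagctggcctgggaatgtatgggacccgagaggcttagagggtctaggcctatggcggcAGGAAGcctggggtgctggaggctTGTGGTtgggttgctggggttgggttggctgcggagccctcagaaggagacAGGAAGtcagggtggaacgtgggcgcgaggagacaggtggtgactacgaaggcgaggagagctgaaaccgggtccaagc
Lck, downstream start: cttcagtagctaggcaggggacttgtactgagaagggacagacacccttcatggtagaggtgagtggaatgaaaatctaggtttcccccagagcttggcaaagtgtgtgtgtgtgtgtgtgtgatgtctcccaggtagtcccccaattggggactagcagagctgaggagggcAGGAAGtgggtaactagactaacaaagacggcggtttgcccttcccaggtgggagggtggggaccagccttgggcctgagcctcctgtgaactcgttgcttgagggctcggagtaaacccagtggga
The ETS letters occurred in 7 of the 9 windows, those of Cd3g, Cd3d, Cd3e, Cd5, Zap70 and both of Lck, and in 34.5% of all 33469 promoter windows in the table. RUNX letters occurred in 2 of the 9, that of Cd2 and the upstream window of Lck, and in 17.3% of all windows. A match describes the letters of a window and does not show that a factor binds there.

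Over the 12 libraries log2 CPM of Cd3e followed Cd3g with a Pearson r of 0.98 (permutation p = 2e-05 and 5.1e-05 once adjusted, Spearman rho = 0.92 with p = 7e-05 and 0.000206 once adjusted) and Cd3d with an r of 0.96 (permutation p = 2e-05 and 5.1e-05 once adjusted, Spearman rho = 0.92 with p = 8e-05 and 0.000206 once adjusted). Without CTL 14 and HFB 6, the libraries farthest from the median of Cd3e, r was 0.94 with Cd3g and 0.91 with Cd3d. The relation was therefore present among the other 10 libraries too. Adjusted values cover the 18 relations computed. Reads of the CD3 genes were not in a fixed proportion, however. For each Cd3e count there were 2.20 Cd3d counts in HFB 6 and 1.28 in CTL 14, against 0.593 in HFB 1 and 0.513 in HFB 2, while Cd3g stayed between 1.31 and 1.64 counts in these 4 libraries.

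Cd2 encodes an adhesion receptor that binds CD48 on the partner cell in rodents, and Cd5 a surface receptor that dampens receptor signalling. In the HFB glands the lowest, median and highest values of Cd2 were 0, 3.53 and 65.5 CPM, and in the CTL glands 0.394, 1.31 and 64.0 CPM. Cd5 had 0, 5.30 and 64.3 CPM with HFB and 0, 0.869 and 80.7 CPM with CTL. HFB 6 and CTL 14 were again highest, HFB 1 (17.2 CPM for Cd2 and 29.4 for Cd5) next, and the diets overlapped. Cd5 followed Cd3e (r = 0.99, permutation p = 1e-05 and 4.5e-05 once adjusted, Spearman rho = 0.93 with p = 5e-05 and 0.000206 once adjusted, and r = 0.97 without CTL 14 and HFB 6). For Cd2 the relation was looser in rank (r = 0.94, permutation p = 7e-05 and 0.000126 once adjusted, Spearman rho = 0.73 with p = 0.00882 and 0.016 once adjusted, and r = 0.83 with rho = 0.55 without those libraries). Cd2 had fewer than 3 counts in 5 libraries and Cd5 in 6.

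CD8, built from the chains of Cd8a and Cd8b, binds MHC class I and marks mainly cytotoxic T cells, while CD4 binds MHC class II and marks mainly helper and regulatory T cells. Cd8a had 0.713, 9.80 and 136.9 CPM at the lowest, median and highest in the HFB glands and 1.26, 2.92 and 75.9 CPM in the CTL glands. Cd8b had 0, 2.97 and 24.2 CPM with HFB and 0, 1.05 and 19.8 CPM with CTL. Both followed Cd3e across libraries, Cd8a with r = 0.98 (permutation p = 1e-05 and 4.5e-05 once adjusted, Spearman rho = 0.96 with p = 1e-05 and 0.00018 once adjusted) and Cd8b with r = 0.98 (permutation p = 1e-05 and 4.5e-05 once adjusted, Spearman rho = 0.93 with p = 7e-05 and 0.000206 once adjusted). Without CTL 14 and HFB 6, r was 0.97 and 0.95. Cd8b and Cd8a are also neighbours in the genome, and the log2 ratio of their counts had a mean of -2.13 ± 0.61 (SD, n = 6) with HFB and -1.84 ± 0.86 (SD, n = 6) with CTL (exact permutation test, p = 0.504, adjusted p = 0.701 over 4 ratios). Cd8b had at most 2 counts in 6 of the 12 libraries, where the pseudocount largely sets the ratio, so no likeness of the diets is read from it.

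Cd4 departed from the other 9 genes. Its lowest, median and highest values were 4.76, 18.6 and 45.0 CPM with HFB and 9.45, 21.5 and 27.3 CPM with CTL, and all 12 libraries had at least 12 counts. The lowest value of any gland was in HFB 6, which had the highest Cd8a and Cd3d, and the highest was in HFB 1. CTL 14, with the highest Cd3e, had 23.7 CPM of Cd4, inside the range of the CTL glands with few CD3 counts. No relation of Cd4 to Cd3e was seen over 12 libraries (r = 0.02, permutation p = 0.948 and 0.948 once adjusted, Spearman rho = 0.27 with p = 0.39 and 0.585 once adjusted). Among the 10 libraries other than CTL 14 and HFB 6, r was 0.64 (permutation p = 0.0506), so the absence of a relation rests on those libraries.

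**Figure D2:**
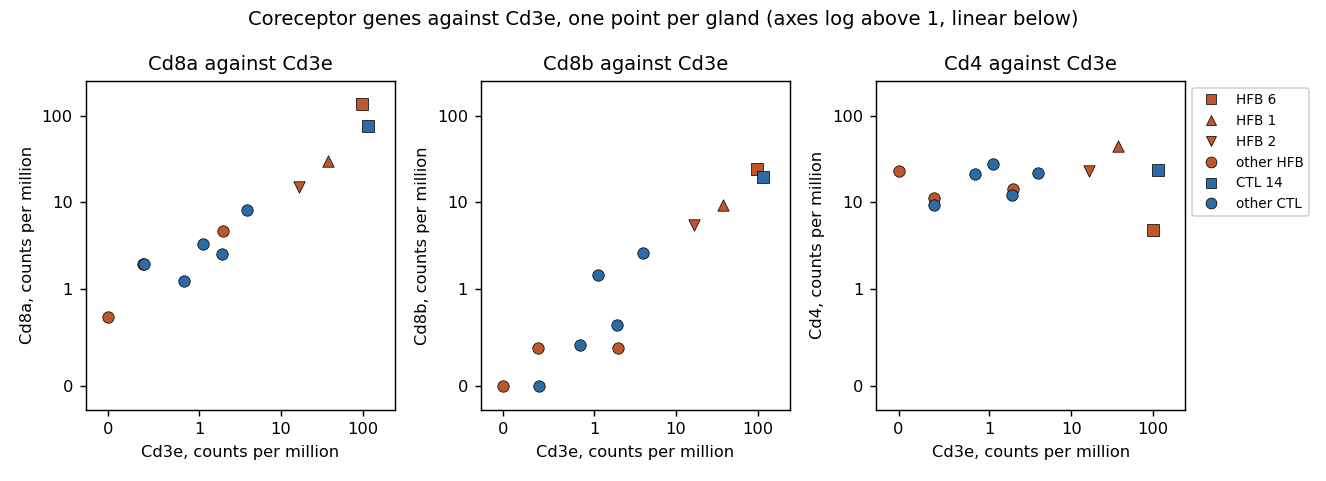
CPM of Cd8a, Cd8b and Cd4 against CPM of Cd3e, 1 point per gland, on axes that are logarithmic above 1 CPM and linear below it. Cd8a and Cd8b climb with Cd3e in both diets, while Cd4 stays between 9.45 and 45.0 CPM in 11 glands and is 4.76 CPM in HFB 6.

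The plot of the coreceptors against Cd3e sets these patterns side by side. Cd4 made up 3.36% of the Cd4 and Cd8a counts in HFB 6 (12 of 357 counts, 95% exact binomial interval 1.75% to 5.80%) and 23.8% in CTL 14 (19.0% to 29.1%). In HFB 1 the share was 59.8% (52.3% to 66.9%) and in HFB 2 60.7% (49.7% to 70.9%). The other 8 libraries had shares from 72.9% (CTL 9) to 97.0% (HFB 4), with few Cd8a counts. These intervals cover counting error only, and glands of different animals can differ by more than that. Genes besides Cd4 were also low in HFB 6 and others were high, as given below. Whether the shares describe the T cells of HFB 6 was not tested. The log2 ratio of Cd4 to Cd8a was 0.85 ± 3.15 (SD, n = 6) with HFB and 1.82 ± 1.90 (SD, n = 6) with CTL, a difference of -0.97 within the spread of the libraries (exact permutation test, p = 0.576, adjusted p = 0.701). Without HFB 6 that difference was 0.16, without CTL 14 it was -1.67 and without both it was -0.54.

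Macrophage genes were read beside Cd4 because rat macrophages carry it. The 13 genes of the macrophage list all had counts, with C1qa most abundant, and their summed CPM lay between 808 (CTL 14) and 1475 (HFB 5), with 1382 in HFB 6 and at most 1111 in the others. Csf1r, the receptor for colony stimulating factor 1 on macrophages, ran from 87.0 to 153 CPM. Cd4 did not follow Csf1r (r = -0.18, permutation p = 0.573 and 0.86 once adjusted, Spearman rho = -0.25 with p = 0.43 and 0.595 once adjusted), nor without HFB 6 and CTL 8, the libraries farthest in Cd4 (r = -0.36, permutation p = 0.296), while within diets r was -0.62 with HFB and 0.46 with CTL. Other genes of the list went their own ways in HFB 6 and CTL 14, where Mrc1 (42.5 and 31.7 CPM), Cd163 (22.6 and 9.40) and Mertk (0.794 and 1.04) were lowest and Cd68 (56.0 and 48.7) and Aif1 (118 and 100) highest. The log2 ratio of Cd4 to Csf1r was -2.94 ± 1.22 (SD, n = 6) with HFB and -2.57 ± 0.53 (SD, n = 6) with CTL (exact permutation test, p = 0.496, adjusted p = 0.701). How much of the Cd4 signal came from macrophages was not tested.

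Lck phosphorylates the CD3 chains and ZAP-70 binds to them once they are phosphorylated. Lck had 5.70, 28.0 and 197 CPM at the lowest, median and highest in the HFB glands and 5.51, 9.57 and 217 CPM in the CTL glands. Zap70 had 0, 6.58 and 76.2 CPM with HFB and 0, 1.87 and 86.3 CPM with CTL. Both were highest in CTL 14 and HFB 6, and next in HFB 1 (96.5 and 29.0 CPM) and HFB 2 (48.7 and 12.4 CPM), with overlap of the diets. Lck had at least 14 counts in every library, including HFB 4, which had 0 counts of Cd3e and Zap70. Zap70 counts per Cd3e count were alike in the libraries with many, at 0.780 in HFB 1, 0.744 in HFB 2, 0.771 in HFB 6 and 0.745 in CTL 14. Correlations with Cd3e were 0.98 for Lck (permutation p = 2e-05 and 5.1e-05 once adjusted, Spearman rho = 0.93 with p = 3e-05 and 0.000206 once adjusted) and 0.97 for Zap70 (permutation p = 1e-05 and 4.5e-05 once adjusted, Spearman rho = 0.88 with p = 0.00051 and 0.00115 once adjusted), or 0.94 and 0.92 without CTL 14 and HFB 6.

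No difference between the diets was detected for any of the 10 genes with all 12 libraries. In edgeR's quasi-likelihood test with a filter on low counts, 0 of 9382 genes (0.0%) had a Benjamini-Hochberg adjusted p under 0.05 and 220 (2.34%) an unadjusted p under 0.05, while 320 genes had one in DESeq2 and 613 in limma-voom, again with none after adjustment. The filter kept 4 members, Cd3g, Cd4, Cd8a and Lck, and the other 6 were read from a fit without it, in which 0 of 13557 genes (0.0%) passed after adjustment and 305 (2.25%) at the unadjusted threshold. None of the 10 members was among either 220 or 305. Log2 fold changes of HFB over CTL were 1.01 ± 1.19 (SE, adjusted p = 0.999) for Cd8a, 0.44 ± 1.09 (SE, adjusted p = 0.999) for Lck, 0.34 ± 1.40 (SE, adjusted p = 0.999) for Cd3g and 0.06 ± 0.43 (SE, adjusted p = 0.999) for Cd4. Without the filter Cd3d had 0.65 ± 1.45 and Cd8b 0.64 ± 1.15 (SE), and Cd3e, Cd2, Zap70 and Cd5 had between 0.28 and 0.30 with SEs of 1.26 to 1.35, all with an adjusted p of 0.998. Estimates of all 10 were above 0, as were those of 50.8% of all genes in that fit, and their median was 0.32 against 0.01 over all genes. CPM ranges of the diets overlapped for all 10 members, and 13 of 13557 genes (0.0959%) had ranges that did not. In these edgeR fits every SE exceeded its estimate. In limma-voom the estimates of Cd8a (0.95 ± 0.82), Lck (0.98 ± 0.71) and Cd4 (0.34 ± 0.33, SE) exceeded theirs, and that of Cd3g (1.13 ± 1.24) did not. For each gene 3 or 4 of the 6 HFB libraries lay above the CTL median.

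**Figure D3:**
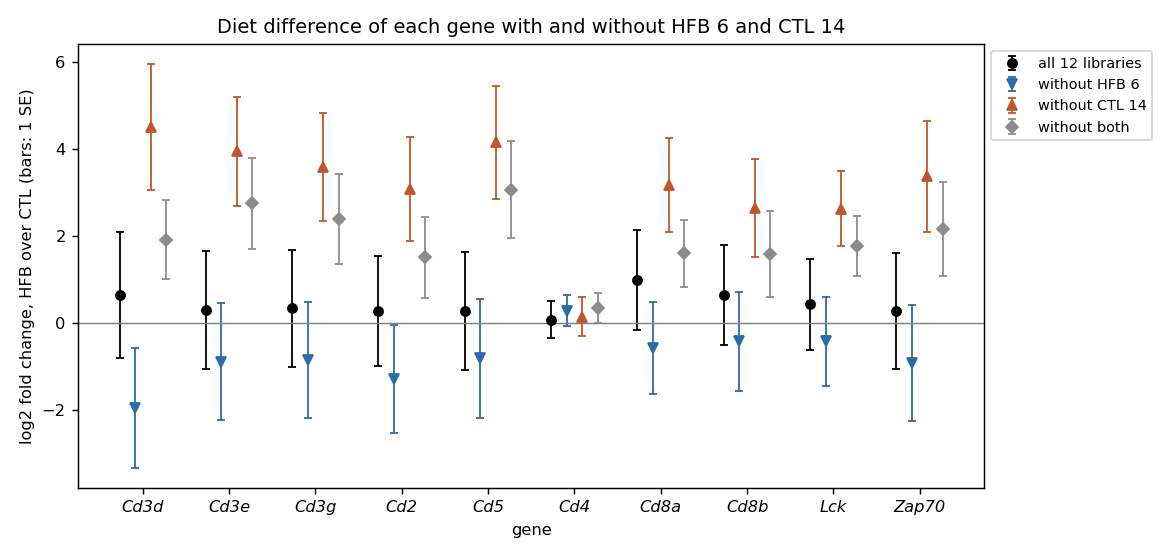
Log2 fold changes of HFB over CTL for the 10 genes, from edgeR without a filter, with bars of 1 SE, in all 12 libraries and without HFB 6, CTL 14 or both. Estimates of 9 genes lie below 0 without HFB 6 and between 2.63 and 4.51 without CTL 14, while those of Cd4 stay between 0.08 and 0.35.

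The estimates turned on which of the outlying libraries was present, as the plot of fold changes with and without them shows. Without HFB 6 the fold changes of 9 members lay between -1.94 (Cd3d) and -0.42 (Lck and Cd8b), and that of Cd4 was 0.29. Without CTL 14 the same 9 lay between 2.63 (Lck) and 4.51 (Cd3d) at unadjusted edgeR p from 0.00652 (Cd5) to 0.034 (Cd8b), where 624 of 13481 genes (4.63%) were higher with HFB at an unadjusted p under 0.05. No gene passed after adjustment in that fit either, with an adjusted p of 0.706 for all 9. With both libraries left out, a choice made after seeing the data, the 9 lay between 1.52 (Cd2) and 3.07 (Cd5), and 4 of them, Cd3e, Cd3g, Cd5 and Lck, had an unadjusted edgeR p under 0.05, against 311 of 13347 genes (2.33%) higher with HFB at that threshold. Their adjusted p was 0.856. In that fit the CD3 counts of the HFB group came mainly from HFB 1 and HFB 2.

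Other genes of receptor signalling were compared between the diets as a list. Of the 24 listed, 20 had a row, 0 had an unadjusted p under 0.05, 16 had an estimate above 0 and their median log2 fold change was 0.28, where over all 13557 genes 305 (2.25%) had such a p, 50.8% an estimate above 0 and the median was 0.01. The lists below are to be read against the same values over all genes. Lat, the adaptor that gathers signalling proteins at the membrane, was picked after its values were seen and ran from 2.36 CPM (CTL 8) to 266 (HFB 6) and 226.5 (CTL 14). Ptprc, the phosphatase CD45 of all white blood cells, had 355 CPM in CTL 14, 185 in HFB 6, 169 in HFB 1 and 79.4 in HFB 2, and at most 42.0 elsewhere. The list was led by Plcg1, Csk, Ptprc and Ptpn6. Plcg1 and Csk, which other cells of the gland also use, varied less, between 97.5 and 329 CPM and between 84.3 and 272.5 CPM.

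T cell surface genes (18 of 20 with a row) had 0 with an unadjusted p under 0.05 and a median log2 fold change of 0.44, with Cd48, Thy1, Cd27 and Cd6 most abundant. Cd48 and Thy1 were lowest in HFB 6, with 80.6 CPM against 163 to 288 in the others and 44.5 CPM against 52.1 to 109. Cd27, a costimulatory receptor, had 213 CPM in HFB 6 and 201 in CTL 14, 34.8 in HFB 1 and at most 14.1 in the others. Among transcription factors of T cells (13 of 16 with a row), led by Ets1, Zbtb7b, Satb1 and Foxp3, only Gata3 passed an unadjusted p of 0.05 (log2 fold change -0.90 ± 0.37, SE), where 2.25% of all genes did, and it did not pass after adjustment. It had 1.64 to 7.13 CPM with HFB and 3.90 to 10.1 CPM with CTL. Gata3, a factor of T cells and also of mammary luminal cells, did not follow the CD3 order, since HFB 1 had the least. Foxp3, the factor of regulatory T cells, had 88.1 CPM in HFB 6 and 57.1 in CTL 14, against 13.2 to 28.5 in the others. It had 34 to 74 counts in the 8 glands with at most 9 Cd3e counts, with 74 in HFB 5, which had 1 Cd3e count, and which cells these came from was not tested. Trafficking genes (11 of 12 with a row), led by S1pr1, Itgb7 and Itgal, had 0 under that threshold and a median of 0.20.

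Genes of cytotoxic and natural killer cells had few counts. Of 12 with a row among 13, Ifng had 0 counts in all libraries, and the summed CPM was 104 in CTL 14, 85.7 in HFB 6, 45.0 in HFB 1 and at most 17.5 elsewhere. Klrk1, Klrd1, Prf1 and Ccl5 were most abundant, with at most 31.3 CPM in any library, and Gzma, Gzmb and Ncr1 had means of 0.357, 0.186 and 0.157 CPM. None had an unadjusted p under 0.05, and the median log2 fold change was 0.08. Markers of immature T cells of the thymus were near 0 (mean CPM of Rag1 0.237, of Rag2 0.0341 and of Dntt 0.371), while Cd1d1, which many cells express, had 21.4 to 64.0 CPM, and none of the 4 with a row among 6 had an unadjusted p under 0.05, with a median of 0.82.

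**Figure D4:**
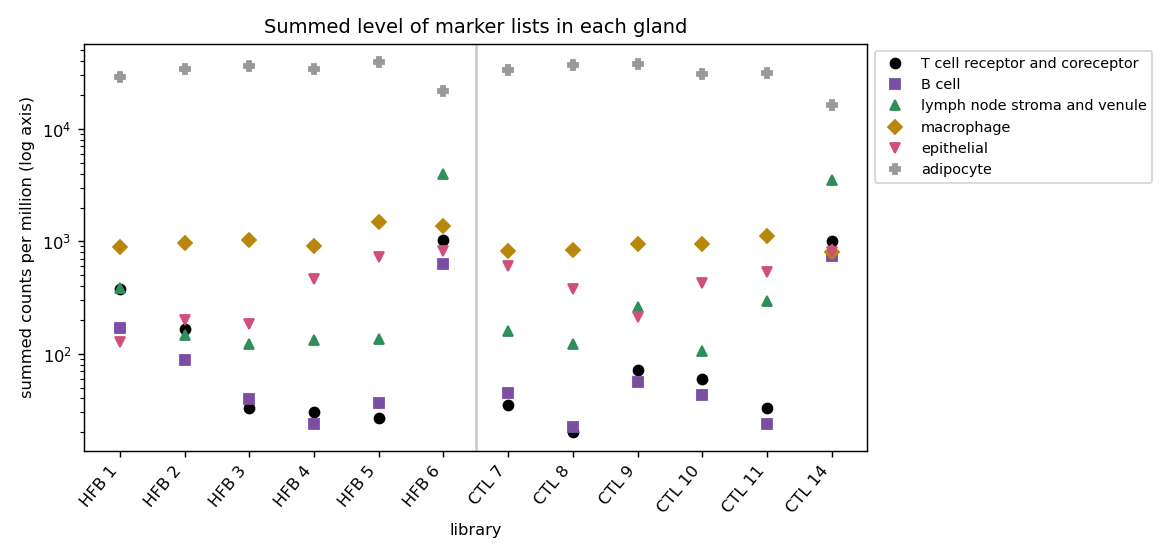
Summed CPM of 6 lists of marker genes in each of the 12 libraries on a logarithmic axis, HFB left and CTL right. In HFB 6 and CTL 14 the T cell, B cell and lymph node lists peak (1037, 631 and 3942 CPM, and 1001, 737 and 3498 CPM) and the adipocyte list is lowest. The T cell list is also raised in HFB 1 and HFB 2. The lymph node list has 386 CPM in HFB 1 and 148 in HFB 2, against 107 to 294 in the remaining libraries.

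Markers of other cells moved with the T cell genes, as the plot of summed lists shows. The 10 members summed to 1037 CPM in HFB 6, 1001 in CTL 14, 377 in HFB 1 and 166.5 in HFB 2, and to between 20.1 and 71.0 in the others. B cell genes (13 of 14 with a row, none at 0, Cd79b most abundant) summed to 631 CPM in HFB 6, 737 in CTL 14, 169.7 in HFB 1 and 87.1 in HFB 2, and to between 22.4 and 56.3 elsewhere. Genes of lymph node stroma and high endothelial venules, the vessels through which lymphocytes enter a node, (all 9 with a row, Ccl21 most abundant, Chst4 with 2 counts in all) summed to 3942 CPM in HFB 6 and 3498 in CTL 14, but to 386 in HFB 1, 148 in HFB 2 and 107 to 294 in the others. Glycam1, a mucin of those venules and also of milk-forming epithelium, had 1014 CPM in HFB 6, 899.9 in CTL 14, 36.0 in HFB 1 and at most 8.23 elsewhere. Ccl19, a chemokine that draws T cells, had 595 and 395 CPM in HFB 6 and CTL 14, 27.8 in HFB 1, 10.7 in HFB 2 and at most 5.63 elsewhere.

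Cd3e followed Cd79b (r = 0.94, permutation p = 3e-05 and 6.8e-05 once adjusted, Spearman rho = 0.93 with p = 4e-05 and 0.000206 once adjusted) and Ccl19 (r = 0.93, permutation p = 4e-05 and 8e-05 once adjusted, Spearman rho = 0.73 with p = 0.00891 and 0.016 once adjusted), with r of 0.86 for each without CTL 14 and HFB 6, but rho of 0.89 for Cd79b and 0.55 for Ccl19. The log2 ratio of Cd3e to Cd79b counts was 0.80 in HFB 1 and 0.11 in HFB 2, against -0.48 or less in every other library. That order did not hold for the B cell gene Ms4a1, which had 32 and 19 counts in HFB 1 and HFB 2 and 81 and 111 in HFB 6 and CTL 14, where Cd3e had 91, 39, 249 and 333. Means of the ratio to Cd79b were -1.39 ± 1.62 (SD, n = 6) with HFB and -1.11 ± 0.53 (SD, n = 6) with CTL (exact permutation test, p = 0.701, adjusted p = 0.701), and the sign of the difference of -0.28 turned without HFB 4 or HFB 5.

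Adipocyte genes (all 8 with a row, none at 0, Fabp4 most abundant) summed to 21610 CPM in HFB 6 and 16420 in CTL 14 and to 28900 to 39100 in the others. Adipoq fell with rising Cd3e (r = -0.82, permutation p = 0.00089 and 0.00146 once adjusted, Spearman rho = -0.64 with p = 0.0306 and 0.0501 once adjusted), a relation that rested on those libraries (r = -0.50, permutation p = 0.142 without them). Mast cell genes (all 8, Cpa3 most abundant) were lowest in CTL 14 (48.7 CPM) and HFB 6 (104 CPM), with 147 to 354 in the others. Dendritic genes (6 of 8 with a row, Ccl22 most abundant) were highest there, at 74.8 and 82.9 CPM, with 31.9 in HFB 1 and at most 14.9 elsewhere. No gene of the B cell, lymph node, adipocyte, mast or dendritic lists had an unadjusted p under 0.05 between the diets, and the median log2 fold changes were -0.04, 0.34, 0.01, -0.28 and 0.26. What part lymph node tissue or the share of fat cells had in the T cell levels was not tested.

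Epithelial (10 of 12 with a row, Krt8 most abundant, Cldn3 at 0), skeletal muscle (8 of 8, Acta1) and red cell genes (8 of 8, Hbb) had summed CPM of 128 to 824, 165 to 5919 and 9311 to 96460. The epithelial sum was highest in HFB 6 and CTL 14 (800) and lowest in HFB 1, the muscle sum was highest in HFB 6, with 1141 in CTL 14, and lowest in CTL 10, and the red cell sum was highest in HFB 2 and lowest in CTL 10. Correlations of Cd3e were 0.15 with Krt18, -0.13 with Acta1, 0.07 with Alas2 and -0.10 with Csf1r (permutation p = 0.641, 0.688, 0.838 and 0.76, adjusted p = 0.884, 0.884, 0.887 and 0.884, rho = 0.01, -0.14, 0.08 and 0.01, with p = 0.974, 0.668, 0.817 and 0.991). Without CTL 14 and HFB 6 they were -0.59, -0.48, 0.31 and 0.10 (permutation p = 0.0738, 0.166, 0.384 and 0.776), so the sign turned for Krt18 and Csf1r. Of the epithelial, muscle and red cell lists none had a gene with an unadjusted p under 0.05, with medians of -0.21, 0.42 and 0.90. Among the lists of other cells the macrophage list had 3 such genes among 13, against 2.25% of all genes, namely C1qa, C1qb and C1qc, the chains of complement C1q, with estimates above 0 (log2 fold changes 0.51 ± 0.23, 0.59 ± 0.20 and 0.36 ± 0.16, SE), and its median was 0.08. None of the 3 passed after adjustment, and HFB 5 and HFB 6 carried the difference for C1qa, with 329 and 384.5 CPM against 142.7 to 186 in the other HFB glands and 140 to 178 in the CTL glands.

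The 10 genes most like the members, by the Pearson r of log2 CPM with the members' mean over 12 libraries among 9378 other genes that passed the filter, were Lcp1, Cd27, Grap, Coro1a, Lpxn, Ptprc, Acap1, Il2rg, Evl and Pik3cd, with r from 0.98 to 0.99. Without HFB 6 and CTL 14 their r was 0.94 to 0.98. Coro1a, a regulator of actin in white blood cells, had 945 CPM in HFB 6, 1065 in CTL 14, 314 in HFB 1, 178 in HFB 2 and at most 81.2 elsewhere. Il2rg, the common chain of several cytokine receptors, had 166, 231, 74.0 and 31.2 CPM in those libraries and at most 20.8 elsewhere. Cd4, although a member, had an r of 0.03 with that mean.

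Counts per Cd3e count were compared between the 4 glands with many Cd3e counts. A gene that other cells also express can have fewer counts per Cd3e count where Cd3e is high, so a lower value does not by itself describe T cells. Cd3e had 98.8 CPM in HFB 6 and 116 in CTL 14 against 37.2 in HFB 1. A gene at equal CPM in these libraries would therefore be lower per Cd3e count in HFB 6 and CTL 14. How many of all genes were lower was not computed, so the numbers below are not read as a result about the T cell lists. Over 56 genes of the T cell lists with at least 40 counts in these 4 libraries together, the value per Cd3e count was lower in HFB 6 than in HFB 1 for 41 and higher for 15, lower in CTL 14 for 46 and lower in HFB 2 for 27. It was more than 10-fold lower in HFB 6 for 8 genes, among them Cd4, Rasgrp1, Lef1, Bcl11b, Zbtb7b, Ikzf1 and Satb1, and in CTL 14 for 5. For 3 genes that ran the other way, Trat1, Tbx21 and Cxcr3, HFB 1 had 7, 7 and 6 counts and HFB 6 had 34, 29 and 23. Genes named in this paragraph and the next were picked after their values were seen. Ikzf1, a transcription factor of all lymphocytes, had 86 counts in HFB 1, 31 in HFB 2, 22 in CTL 14 and 2 in HFB 6, where Cd3e had 91, 39, 333 and 249. Rasgrp1, which links the receptor to Ras, had 64, 24, 5 and 1 counts in the same order. Cd28, the main costimulatory receptor, had 13, 6, 2 and 0, too few for the limit of 40 counts, so it is not among the 56 genes.

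**Figure D5:**
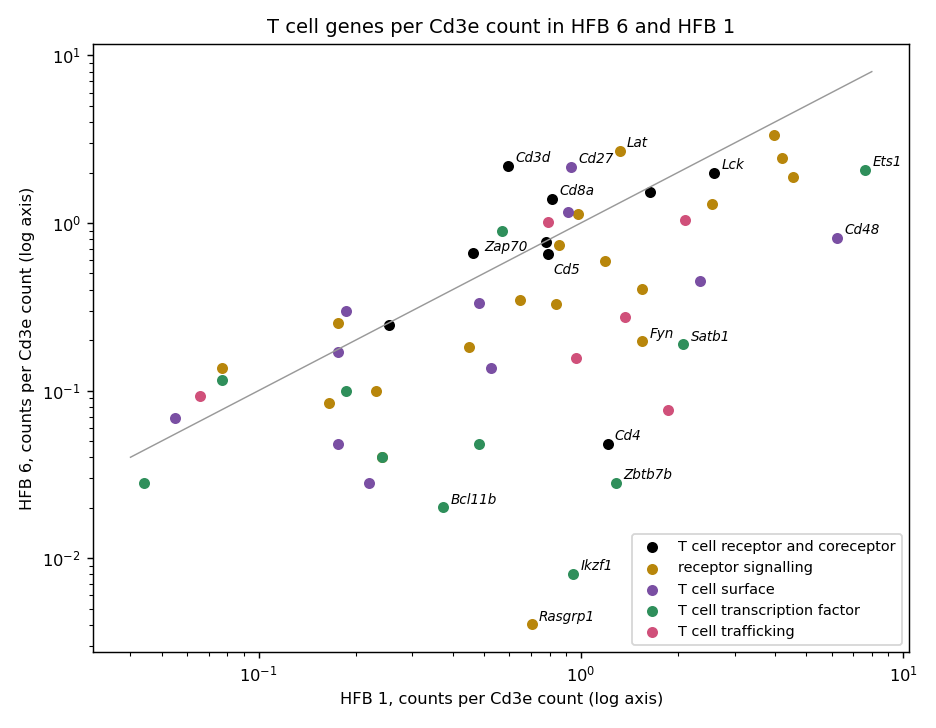
Counts per Cd3e count in HFB 6 (vertical) against HFB 1 (horizontal), both on logarithmic axes, for 56 genes of the T cell lists with at least 40 counts over HFB 1, HFB 2, HFB 6 and CTL 14, with the line of equal values. Zap70 and Cd5 lie near the line, Cd3d, Cd27 and Lat above it, and Cd4, Zbtb7b, Ikzf1 and Rasgrp1 far below it.

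The plot of counts per Cd3e count sets Cd4 beside other T cell genes. Zbtb7b, the factor of CD4 lineage choice that other tissues express as well, had 2.78 CPM in HFB 6 and 8.70 in CTL 14, below the 16.2 to 47.9 CPM of all other glands. Per Cd3e count, Cd3d, Lat and Cd27 were higher in HFB 6 (2.20, 2.69 and 2.16) and CTL 14 (1.28, 1.95 and 1.74) than in HFB 1 (0.593, 1.32 and 0.934). The 45S ribosomal RNA gene Rn45s took 4.86% of the counts of HFB 6 and 2.60% of CTL 14, against 0.367% in HFB 1 and 0.444% in HFB 2, and it took 5.67% in CTL 11, which had 2 Cd3e counts. Whether the ribosomal share had a part in these ratios was not tested.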

How the data were processed

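Counts of reads per gene (raw counts, not normalized) were deposited by the authors for whole glands, 6 HFB and 6 CTL. The submitters' processing notes name bcl2fastq, CASAVA 1.8, TopHat, DESeq and the rn4 build, while the counting program, annotation and use of strand are not given in the sources used here. Of 16511 Entrez identifiers 16351 matched a symbol in the RefSeq gene table of GRCr8, used only for names and neighbours. As a check for a library deposited more than once, and for nothing else, pairs within a diet were compared, and none agreed within sampling noise (lowest chi-square per degree of freedom 6.69 over 30 pairs).

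Diets were compared by the quasi-likelihood test of edgeR 4.0.16 under R 4.3.3 (TMM, filterByExpr, all 12 libraries, Benjamini-Hochberg over all genes, threshold 0.05), tested on simulated data for the same genes. The simulation gave all genes a shared dispersion, so it does not cover genes that vary as much as most members. CPM used TMM-scaled totals, log2 CPM a prior count of 2, and count ratios a pseudocount of 0.5. Single ratios were tested over the 924 assignments of 6 libraries against 6 (two-sided, smallest p 0.0022), correlations with 100000 permutations in scipy 1.17.1 under Python 3.11.15. Alternatives were RLE size factors, DESeq2 1.42.0, limma 3.58.1 (voom with quality weights), no filter, other pseudocounts and prior counts, leaving out each library and, added later, leaving out HFB 6 with CTL 14. Cd79b and Ccl19 replaced Cd79a, which had no row, and Chst4. Of 15 other lists the text names up to 4 genes with the highest mean CPM, genes with an unadjusted p under 0.05 and defining genes at 0, and the 10 filtered genes most correlated with the members' mean. Some genes that the rule names are not reported here. Members and lists were chosen with earlier results of these data known.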

Additional observations from a re-analysis of the deposited data

Results flagged for a closer look

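In 52 groups of 6 values (each member's log2 CPM, each list's log2 summed CPM and the total counts, per diet), 17 had an end value whose gap to its neighbour was a larger part of the range than Dixon's limit for 6 values. Chance gives about 1 in 20, or 2.6 groups, and since the genes vary together these groups are not independent. CTL 14 was the outlying library in 13 of the 17.

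Among the members, CTL 14 was the highest CTL library in log2 CPM of Cd3d (7.22, next 1.93), Cd3e (6.87, next 2.22), Cd5 (6.35, next 1.75) and Lck (7.76, next 4.09). It was also highest in the log2 summed CPM of receptor signalling (10.87, next 8.78), T cell surface (9.43, next 8.58), trafficking (8.78, next 6.53), cytotoxic (6.71, next 4.05), B cell (9.53, next 5.84), dendritic (6.25, next 3.85) and lymph node genes (11.77, next 8.21), and lowest in mast cell (5.64, next 7.88) and adipocyte genes (14, next 14.92). HFB 6 was highest of the HFB libraries in lymph node genes (11.95, next 8.59). It did not pass the limit for any member, although it was the lowest HFB library in Cd4.

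The remaining 3 concern other measures. CTL 9 had the highest summed red cell genes of its diet (15.87, next 13.88, log2). HFB 1 had the lowest total of the HFB libraries (2320267 counts, next 2629159) and CTL 7 the highest of the CTL libraries (2944680 counts, next 2570080).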

How the results depend on the processing

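No adjusted call was made with all libraries in edgeR, RLE size factors, DESeq2, limma-voom or without the filter, nor without any 1 library, and the fold changes of the members each of these tested stayed above 0 with all libraries. In limma-voom they were 1.13 for Cd3g, 0.98 for Lck and 0.34 for Cd4, where edgeR gave 0.34, 0.44 and 0.06. DESeq2 gave no p for Cd3d. The 220 genes at an unadjusted p under 0.05 became 613 in limma-voom and 431 without HFB 6 and CTL 14, and 135 to 587 with 1 library left out. Leaving out 1 library moved the log2 fold change of Cd3d from -1.94 to 4.51, of Cd3e from -0.88 to 3.95, of Cd3g from -0.88 to 3.64, of Cd2 from -1.28 to 3.10, of Cd5 from -0.81 to 4.16, of Cd4 from -0.34 to 0.27, of Cd8a from -0.60 to 3.23, of Cd8b from -0.42 to 2.66, of Lck from -0.45 to 2.68 and of Zap70 from -0.92 to 3.37. Negative ends came without HFB 6 and positive ones without CTL 14, except for Cd4, which was -0.34 without HFB 1, -0.04 without CTL 7, -0.07 without CTL 8 and 0.27 without HFB 6. Differences in log2 ratio ranged from -1.74 to 0.16 for Cd4 to Cd8a, from -0.71 to 0.12 for Cd3e to Cd79b, from -0.62 to -0.11 for Cd8b to Cd8a and from -0.69 to -0.01 for Cd4 to Csf1r, the last at 0.13 without HFB 6 and CTL 14. The cause was not tested. Of 66 values under the other alternatives only the ratio of Cd4 to Csf1r changed direction, which says nothing of size, as the difference for Cd3e to Cd79b went from -0.28 to -0.04 with a pseudocount of 2. These 66 include numbers of genes under a threshold, which have no direction, and 18 correlations where only the prior count changed. Fits without 1 library are not among them. No paired analysis was possible because the groups share no replicate numbers. Cd3d, Cd3e, Cd2, Cd5, Cd8b and Zap70 had fewer than 10 counts in most glands, so values there rest on few reads, close copies and overlapping neighbours could share reads, and CPM of different genes were not corrected for transcript length.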

Other observations

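Lck kept 14 to 44 counts in the 8 glands with at most 9 Cd3e counts, and Cd4 kept 24 to 74, whereas Cd3d, Cd3e, Cd5, Cd8b and Zap70 had at most 9 there. The remaining members reached more in these glands, with up to 19 counts of Cd3g, 19 of Cd8a and 12 of Cd2, all in CTL 9. HFB 4 had 64 Cd4 and 16 Lck counts with 0 of Cd3d, Cd3e, Cd5, Cd8b and Zap70, and a count of 0 allows up to 1.07 CPM in that library. It also had 1 count of Cd3g, 2 of Cd2 and 2 of Cd8a. CTL 10 had the most Lck (44 counts), Lcp2 (76 counts) and Ikzf1 (11.5 CPM) of these 8 with 3 counts of Cd3e. These genes were picked after their values were seen, and which cells the counts came from was not tested.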
